A study of Mus musculus with 8 samples.

Results

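The genes described here are 9 non-laminin genes of the vascular basement membrane: Col4a1, Col4a2, Hspg2, Agrn, Nid1, Nid2, Sparc, Col18a1 and Col15a1. They were taken by symbol from the 31053 gene rows of a single-cell RNA series of mouse cortex, and all 9 had at least 1 UMI (a unique molecular identifier, which counts 1 captured RNA molecule) in every library. The series holds 4 groups of 8-week-old mice perfused with cold PBS: Lama4-/- mice, in which the gene is lost in every cell, their own wild type (WT), Tek-Cre:Lama5-/- mice, and a separate WT for these. Tek-Cre is active in the endothelial lineage and also reaches blood-forming cells, so deletion of Lama5 is not expected in mural cells or astrocytes. Each group was 1 pool of 3 mice, split into 2 samples. The deposited matrices of the 2 Lama4-/- samples were identical and were counted as 1 library, which left 7 distinct libraries.

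A basement membrane is a thin sheet of matrix around vessels, in which a laminin network and a collagen IV network are joined by nidogens and by the heparan sulfate proteoglycans perlecan and agrin. In brain vessels, endothelial cells and pericytes share an inner sheet, and astrocyte endfeet face an outer one. SPARC binds collagen IV and modulates matrix assembly, and collagens XV and XVIII each carry an endostatin-type domain and chains of glycosaminoglycan.

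The libraries held 35479306 to 48314458 UMIs in 6295 to 9556 barcodes, and any pair of libraries shared 6 to 27 barcodes. After filtering, 47239 cells were kept, of which 26498 fell in endothelial-like clusters. Cells were clustered without the 9 genes, all laminin chains and the related gene lists, so that the clusters were not built on them. Some genes of those lists, such as Cldn5, Flt1, Vtn and Fbln5, were among the markers that then named the clusters and zones. The 9 genes and the laminin chains were not. The median endothelial-like cell had 4782.5 to 5918 UMIs in the Lama4 experiment. In the Lama5 experiment it had 3299.5 and 3158 UMIs for the WT libraries and 2814 and 2596 for the knockout (KO). Levels are given as CPM, the UMIs of a gene per 1000000 UMIs summed over the cells of a class in 1 library. The libraries read the 3-prime end of each RNA, and levels of a gene were compared between classes, not with the levels of other genes. The exception is the number of Col4a1 UMIs per Col4a2 UMI, which was itself compared only between classes.

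The targeted genes moved as the labels say. In endothelial-like cells Lama4 was at 45.5 and 44.9 CPM in its WT libraries and at 0.0600 CPM in the Lama4 KO, which is 1 UMI. Lama5 was at 42.5 and 41.6 CPM in its WT and at 21.8 and 24.1 CPM in the Lama5 KO, a log2 change of -0.80 (adjusted p = 3.68e-11, edgeR). The 3-prime reads need not lie in the deleted part of Lama5, whose extent is not given in the sources used here. Lama4 rose by 0.72 on the log2 scale in the same cells, from 29.3 and 31.3 CPM to 48.5 and 45.6 CPM (adjusted p = 3.98e-11, edgeR). The WT level of Lama4 was itself lower in the Lama5 than in the Lama4 experiment (log2 difference -0.46, adjusted p = 6.03e-06, edgeR). The Lama4 level of the Lama5 KO lay near the 45.5 and 44.9 CPM of the other WT. Lama5 was also lower in the WT of the Lama5 experiment (-0.45, adjusted p = 1.01e-06, edgeR).

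Col4a1 and Col4a2 encode the alpha chains that form the common collagen IV trimer. The genes lie head to head on chromosome 8 of GRCm38, Col4a1 at 11198423-11312826 on the minus strand and Col4a2 at 11312805-11449287 on the plus strand (GENCODE M21). Their annotated first exons overlap by 22 bases, shown in capitals in the plus-strand sequence of chr8:11312801-11312830, because this shared start is what sets the pair apart from the other members.
Col4a1 and Col4a2 starts: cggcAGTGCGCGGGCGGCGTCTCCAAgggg

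Of the named classes, pericyte-like cells had the highest mean level of Col4a1. It was 832 to 1014 CPM over the 7 libraries (median 923), above both endothelial-like cells (492 to 618, median 570.5) and smooth muscle-like cells (413 to 614, median 551) in every library. The ranges of endothelial-like and smooth muscle-like cells overlapped. By medians Col4a2 followed the same order, with 321.5 to 438 CPM in pericyte-like cells (median 404), 259 to 331 in endothelial-like cells (median 321) and 257 to 348 in smooth muscle-like cells (median 311). Pericyte-like cells were highest of these 3 classes in 6 of 7 libraries, and the ranges overlapped. Because endothelial-like cells were so many, they held 80.3% to 87.7% of all Col4a1 UMIs and 79.0% to 88.2% of all Col4a2 UMIs in the cells kept. The number of Col4a1 UMIs per Col4a2 UMI was 1.73 to 1.91 in endothelial-like cells and 2.15 to 2.75 in pericyte-like cells, with no overlap. The value for smooth muscle-like cells was 1.41 to 1.86.

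Over 20 classes and vessel zones, the gene with the pattern most like Col4a1 was Col4a2 (Pearson r = 0.989 over log2 of mean CPM plus 1), followed by Tns2 and Arhgap29 (both 0.973), out of 12556 genes compared. After Col4a1, the genes most like Col4a2 were Arhgap29 (0.982) and Akap12 (0.965). These correlations describe the means of classes that share libraries, and no test was made of them.

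The heparan sulfate proteoglycan genes were high in both endothelial-like and pericyte-like cells. Hspg2, which encodes perlecan (chromosome 4, 137468769-137570630, plus strand), was at 52.5 to 101 CPM in endothelial-like cells (median 68.2), 63.0 to 82.8 in pericyte-like cells (median 63.3) and 36.9 to 75.4 in smooth muscle-like cells (median 39.6). These neighbouring ranges overlapped. Fibroblast-like cells had 31.2 to 128 CPM of Hspg2 (median 47.6), a range that overlapped all of these. The spread in endothelial-like cells lay mostly between the experiments. The 3 libraries of the Lama4 experiment lay at 97.3 to 101 CPM there and the 4 of the Lama5 experiment at 52.5 to 68.2. Agrn, which encodes agrin (chromosome 4, 156165290-156197488, minus strand), was at 122 to 226 CPM in pericyte-like cells (median 163), 109 to 184 in endothelial-like cells (median 147) and 72.4 to 117 in smooth muscle-like cells (median 100.2). Astrocyte-like cells had 51.3 to 98.1 CPM of Agrn, which was 28.6% to 90.3% of the endothelial-like level of the same library.

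Free RNA from lysed cells was gauged with 6 genes made by endothelial cells. Of these, Cldn5, Flt1, Ly6c1, Slco1a4 and Itm2a were also markers for naming endothelial-like clusters. Their levels in other classes are thus not independent of the naming. In astrocyte-like cells the 6 gauge genes stood at 0.635% to 5.24% of their endothelial-like level, below the 28.6% seen for Agrn. Hspg2 in astrocyte-like cells was at 0% to 10.5% of the endothelial-like level (0 to 5.54 CPM), a range that includes that background. In microglia-like cells the gauge genes stood at 0.156% to 0.858%, and Col4a1 at 0.493% to 1.14%, close to the same background.

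GC boxes are the GGGCGG motif (CCGCCC when read on the other strand). The upstream sequences of Hspg2 and Agrn are shown, with these boxes in capitals, because both held more of them than any other member searched. Each is 100 bases on the coding strand that end at the annotated start, Hspg2 at chr4:137468669-137468768 on the plus strand and Agrn at chr4:156197489-156197588 on the minus strand of GRCm38.
Hspg2: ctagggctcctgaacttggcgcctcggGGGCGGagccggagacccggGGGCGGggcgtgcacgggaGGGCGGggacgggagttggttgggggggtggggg
Agrn: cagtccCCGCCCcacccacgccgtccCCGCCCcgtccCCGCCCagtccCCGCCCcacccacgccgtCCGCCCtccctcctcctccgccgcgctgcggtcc

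In the 300-base promoter windows of RefSeq, searched on both strands, Agrn held 12 GC boxes at its first start, Hspg2 held 5, Col4a2 and the first start of Col18a1 held 3 each, and Col4a1 and Nid1 held 1 each. The windows of Sparc and Col15a1 held none. Of all 32851 windows, 35.7% held at least 1 GC box and 13.6% held TATAAA, which was in no window of the members searched. The CCAAT letters were in 37.4% of all windows and in those of Col4a1, Col4a2, Nid1 and Col18a1. A match describes the letters of the window and is not a binding site, and no link of the motifs to the changes in the Lama5 KO was tested. Nid2 was not in the promoter table.

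By pattern over classes and zones, Hspg2 was most like Ptpn14 (r = 0.94), Cgnl1 (0.93) and Col4a2 (0.92). Agrn was most like Pcdh1 (0.944), 1700020I14Rik (0.934) and Dab2ip (0.929).

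The nidogen genes, whose products tie laminin to collagen IV, were placed differently from each other. Nid1 (chromosome 13, 13437551-13512269, plus strand) was at 452 to 560 CPM in pericyte-like cells (median 526), 107 to 458 in fibroblast-like cells (median 252), 94.96 to 153 in smooth muscle-like cells (median 121) and 27.2 to 34.5 in endothelial-like cells (median 31.0). Pericyte-like cells were the highest and endothelial-like cells the lowest of the 3 vascular classes in all 7 libraries, with no overlap between any of those 3 ranges. Per library, Nid1 in pericyte-like cells was 1357% to 1830% of the endothelial-like level. Endothelial-like cells still held 41.2% to 55.5% of all Nid1 UMIs, pericyte-like cells 16.3% to 25.8% and smooth muscle-like cells 15.9% to 25.2%.

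Nid2 (chromosome 14, 19751265-19811787, plus strand) was low throughout. It was at 14.8 to 25.4 CPM in endothelial-like cells (median 16.8), 7.57 to 24.7 in pericyte-like cells (median 21.9) and 1.51 to 5.67 in smooth muscle-like cells (median 3.82). The endothelial-like and pericyte-like ranges overlapped, and both lay above smooth muscle-like cells. The highest mean was in choroid plexus-like cells, 29.7 to 49.98 CPM in the 3 libraries that had enough of them, all from the Lama4 experiment. Nid1 was most like Egflam, a matrix gene (r = 0.941), Phldb2 (0.927) and the laminin gene Lamc1 (0.925), all 3 highest in pericyte-like cells. Nid2 was most like Copz2 (0.863), Gstt3 (0.858) and Lman1 (0.852).

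Sparc (chromosome 11, 55394500-55423183, minus strand) was highest in microglia-like cells among the named classes. Microglia-like cells had 1776 to 3704 CPM (median 2265), which was 156% to 233% of the endothelial-like level of the same library. Endothelial-like cells had 971 to 1702 CPM (median 1374), pericyte-like cells 1282 to 1496 (median 1391), ependymal-like cells 876.5 to 1174 (median 1055), fibroblast-like cells 923 to 1226 (median 1012) and smooth muscle-like cells 747.5 to 1002 (median 873). The range of microglia-like cells lay above all of these. The endothelial-like range overlapped each of the others, and the pericyte-like range lay above those of ependymal-like, fibroblast-like and smooth muscle-like cells. Microglia-like cells held 9.76% to 46.7% of all Sparc UMIs and endothelial-like cells 43.3% to 78.2%. By pattern Sparc was most like Lrp5 (r = 0.851), Gm26632 (0.842) and Adamts1 (0.831).

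The genes of the endostatin collagens were the most restricted. Col18a1 (chromosome 10, 77052178-77166548, minus strand) was at 68.0 to 146 CPM in smooth muscle-like cells (median 73.0), 28.6 to 45.4 in endothelial-like cells (median 34.6) and 0 to 8.28 in pericyte-like cells, where both Lama5 KO libraries had no UMI. These 3 ranges did not overlap. Fibroblast-like cells had 12.98 to 192 CPM of Col18a1, a range that spans those of endothelial-like and smooth muscle-like cells. By pattern it was most like Sema3f (r = 0.824), Nov (0.801) and 2200002D01Rik (0.8).

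Col15a1 (chromosome 4, 47208161-47313167, plus strand) was barely detected in endothelial-like, pericyte-like and smooth muscle-like cells, against its place in the list. Endothelial-like cells had 0.0938 to 2.34 CPM and pericyte-like cells had 0 UMIs in all 7 libraries. Microglia-like cells had 18.1 to 25.4 CPM (median 19.2) and held 34.9% to 88.0% of all Col15a1 UMIs. Fibroblast-like cells of the Lama5 experiment had 289.5 and 629 CPM in the WT and 248 and 197 CPM in the KO, from 12 to 15 cells a library. In the Lama4 experiment the class had 0 UMIs in both WT libraries, which allows up to 4.69 and 7.14 CPM, and 9.28 CPM in the KO, from 32 to 42 cells. The same class thus differed between experiments, and Col4a1 did too, at 81.0 to 139 CPM against 403 to 948 CPM. The genes most like Col15a1 were Col6a3 (r = 0.911), Serpinf1 (0.87) and Slc26a2 (0.85), all highest in fibroblast-like cells.

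**Figure D1:**
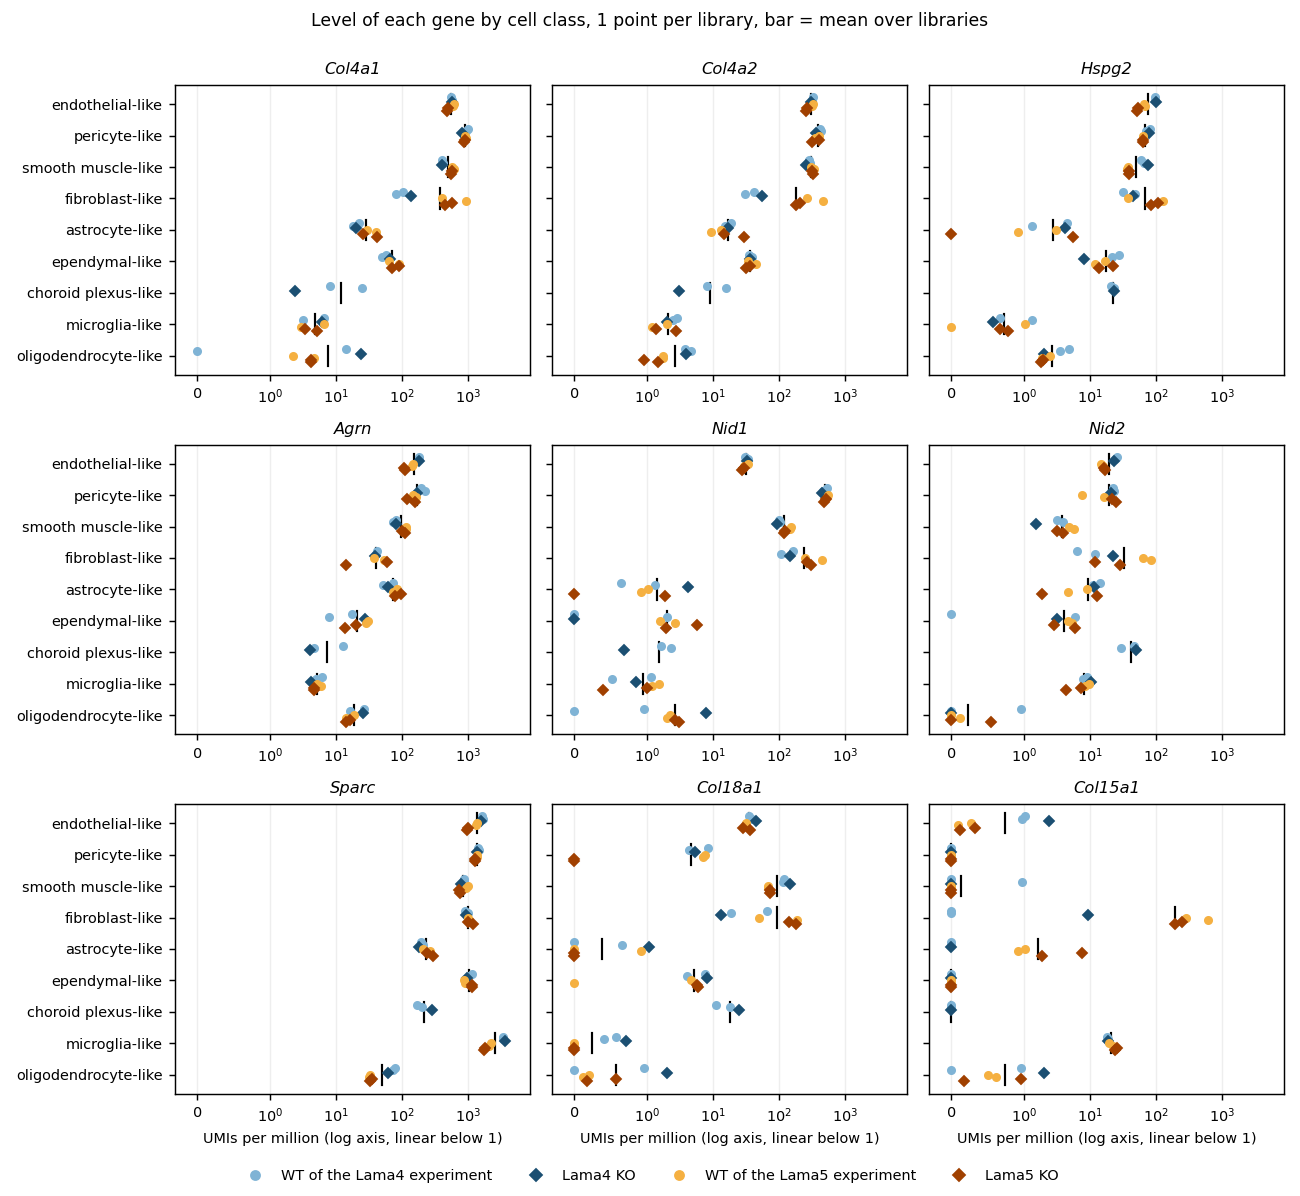
Level of each of the 9 genes in 9 cell classes, in CPM on a log axis that is linear below 1. Each point is 1 library with at least 10 cells of the class and the bar is the mean; Nid1 shows 452 to 560 CPM in pericyte-like cells against 27.2 to 34.5 in endothelial-like cells, and Sparc peaks in microglia-like cells.

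Endothelial-like cells were divided into arterial, arterial-to-capillary, capillary and venous zones by sub-clusters built without the members. Along these zones the genes took 3 kinds of pattern. Col18a1 was arterial: 126 to 186 CPM in the arterial zone (median 149), 7.55 to 15.6 in the arterial-to-capillary zone, 0.556 to 2.97 in the capillary zone and 0 to 0.838 in the venous zone. The arterial zone was the highest in 7 of 7 libraries, with no overlap.

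Nid1 was capillary. It was at 44.2 to 62.3 CPM in the capillary zone (median 52.7), against 20.4 to 28.4 in the arterial-to-capillary zone, 18.4 to 24.2 in the venous zone and 16.5 to 24.6 in the arterial zone. The capillary range did not overlap any other, and the other 3 overlapped. Free RNA of pericyte-like cells, where Nid1 was at 452 to 560 CPM, was not gauged in the zones, and its part was not tested. Nid2 was lowest in the arterial zone in 7 of 7 libraries, at 8.16 to 11.1 CPM, and was at 20.4 to 41.3 in the arterial-to-capillary zone, 17.8 to 37.2 in the capillary zone and 10.3 to 19.2 in the venous zone.

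The remaining genes changed by smaller steps. Hspg2 was highest in the arterial-to-capillary zone, at 74.6 to 130 CPM, and lowest in the venous zone, at 33.4 to 67.2 CPM, in 7 of 7 libraries each. In 3 alternatives of cells or clustering no arterial-to-capillary zone was named, and there the capillary zone had the highest mean of Hspg2 (89.6 CPM with doublets kept, 85.7 with the stricter filter and 93.3 at the finer clustering). Agrn was highest in the arterial zone, at 131 to 212 CPM, and lowest in the venous zone, at 87.4 to 148 CPM, also in 7 of 7 libraries each. Sparc ran the other way, with the arterial zone lowest in 7 of 7 libraries at 810 to 1329 CPM the capillary zone at 1037 to 2079 CPM and the venous zone at 1055 to 1637 CPM. The capillary zone was the highest in 4 libraries and the venous zone in 3. For these 3 genes the ranges over all libraries overlapped between zones, so the order holds within a library.

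Col4a1 was at 583 to 720 CPM in the arterial zone, 528 to 670 in the arterial-to-capillary zone, 431 to 593 in the capillary zone and 468 to 601 in the venous zone. It was highest in the arterial zone in 4 libraries and in the arterial-to-capillary zone in 3, and lowest in the capillary zone in 4 and in the venous zone in 3. Col4a2 was lowest in the venous zone in 5 of 7 libraries, at 225 to 295 CPM. Median UMIs per cell also differed between zones, from 4650 to 11169 in the arterial and 2667 to 5899 in the capillary zone, and their part in the zone differences was not tested.

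**Figure D2:**
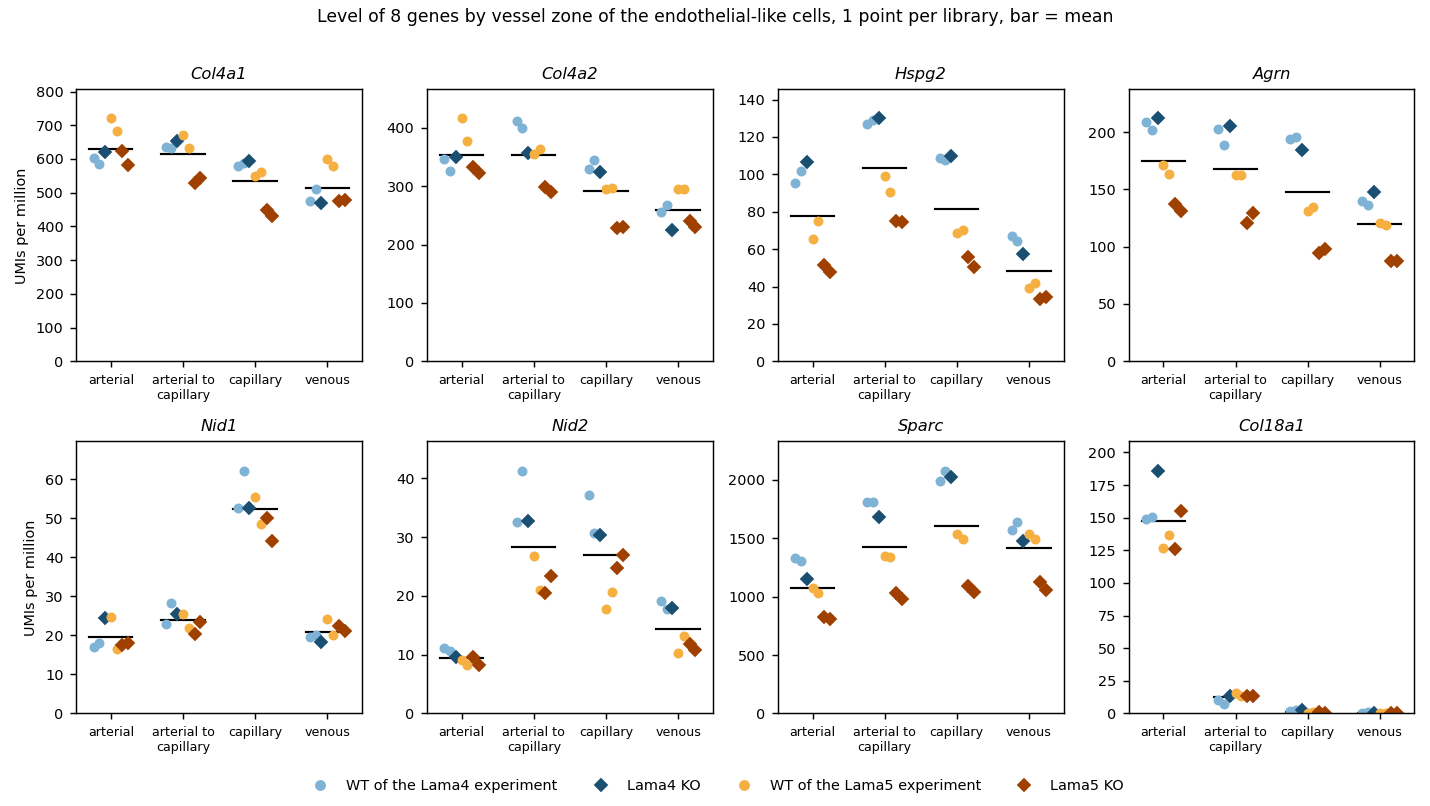
Level of 8 of the genes in 4 vessel zones of endothelial-like cells, in CPM, with 1 point per library and a bar at the mean. Col18a1 is at 126 to 186 CPM in the arterial zone and below 16 elsewhere, Nid1 is highest in the capillary zone, and the Lama5 KO libraries lie lowest for Sparc and Agrn in every zone.

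Among endothelial-like cells, 5 of the members fell in the Lama5 KO and none rose: Sparc, Agrn, Hspg2, Col4a2 and Col4a1. In all, 8 of the 9 members passed the low-count filter, and Col15a1 did not. Of all 13169 genes tested, 19.1% were called in either direction and 8.4% were called lower (edgeR quasi-likelihood test, Benjamini-Hochberg adjusted p under 0.05). This background was not matched to the members by level. The median log2 change was -0.22 over the 8 members tested and -0.00248 over all genes. Every change below is the log2 of KO over WT from scaled counts. The WT libraries had scaling factors of 1.03 and 1.03, and the KO libraries 0.977 and 0.970. The printed CPM are unscaled, so they put the KO lower against the WT than the fitted changes do, for every gene. Statements on whether groups overlap use the printed CPM. For Col4a1 in pericyte-like cells, both KO libraries lay below both WT libraries in CPM, while the fitted log2 value was 0.01. The KO cells also had fewer UMIs per cell, as given above, and its part in the changes was not tested.

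Sparc was at 1374 and 1351 CPM in the WT and at 1021 and 971 CPM in the KO. Both KO libraries lay below both WT libraries, a log2 change of -0.37 (SE 0.0206, adjusted p = 2.55e-14, edgeR). Agrn was at 147 and 142.5 CPM in the WT and at 109 and 110 CPM in the KO. The groups did not overlap, and the log2 change was -0.33 (SE 0.0326, adjusted p = 6.07e-09, edgeR).

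Hspg2 was at 66.1 and 68.2 CPM in the WT and at 53.5 and 52.5 CPM in the KO, a log2 change of -0.26 (SE 0.0439, adjusted p = 4.49e-05, edgeR). Perlecan and agrin genes were thus both lower, again with no overlap of groups. Col4a2 was at 331 and 321 CPM in the WT and at 263.5 and 259 CPM in the KO, a log2 change of -0.24 (SE 0.025, adjusted p = 1.18e-08, edgeR). Col4a1 was at 618 and 595.5 CPM in the WT and at 503 and 492 CPM in the KO, a log2 change of -0.21 (SE 0.0222, adjusted p = 2.48e-08, edgeR). Both collagen IV chains were thus lower in both KO libraries, by similar steps.

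The nidogen genes and Col18a1 did not pass the test. Nid1 was at 34.5 and 29.2 CPM in the WT and at 29.1 and 27.2 CPM in the KO, with a log2 value of -0.10 (adjusted p = 0.362, edgeR). Without the second WT library its log2 change was -0.22 and passed (adjusted p = 0.0301, edgeR), and without the first WT library it was 0.03 (adjusted p = 0.878, edgeR). Nid2 was at 14.8 and 15.8 CPM in the WT and at 16.1 and 16.8 CPM in the KO, with a log2 value of 0.18 (adjusted p = 0.135, edgeR). Col18a1 was at 32.1 and 30.7 CPM in the WT and at 28.6 and 36.1 CPM in the KO, so that the groups overlapped, with a log2 value of 0.12 (adjusted p = 0.302, edgeR). Without the first KO library it was 0.28 and passed (adjusted p = 0.0016, edgeR), and without the second KO library it was -0.06 (adjusted p = 0.667, edgeR). Col15a1 had 6 and 2 UMIs in the WT libraries, and the KO libraries had 6 and 2 as well.

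Within vessel zones the same genes were lower. Col4a1, Col4a2, Agrn and Sparc were called lower in the arterial, arterial-to-capillary, capillary and venous zones alike. Sparc had log2 changes of -0.28, -0.32, -0.41 and -0.41 in that order, and Agrn had -0.24, -0.28, -0.37 and -0.38. Hspg2 was called lower in the arterial zone (-0.42, adjusted p = 0.00153, edgeR) and the capillary zone (-0.28, adjusted p = 0.0333, edgeR), and had values of -0.25 and -0.20 in the other two. The capillary call was lost without any 1 of the 4 libraries (adjusted p = 0.0681 to 0.344, edgeR). In the arterial zone 1 of the 5 calls was left without the second KO library and 2 without the first WT library. In the arterial-to-capillary zone 0 of the 4 calls were left without either KO library, where the adjusted p was 0.59 or 0.618 for each of them (edgeR). The background was 6.92% of genes called in the arterial zone, 5.77% in the arterial-to-capillary zone, 9.32% in the capillary zone and 10.3% in the venous zone.

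Nid2 was the exception among the members. In the capillary zone it was at 17.8 and 20.6 CPM in the WT and at 24.8 and 27.0 CPM in the KO, a log2 change of 0.53 (SE 0.155, adjusted p = 0.0105, edgeR). The KO libraries lay above the WT libraries. The call was lost when doublets were kept (0.29, adjusted p = 0.0519) and under a stricter cell filter (0.31, adjusted p = 0.0846), and with zones set by a range of marker UMIs the value was 0.11 (adjusted p = 0.636, edgeR). It was also lost without the first WT library (0.42, adjusted p = 0.203) and without the second KO library (0.46, adjusted p = 0.141).

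No member's change differed between zones by the test of the difference (edgeR with both zones and a library block, for the 3 pairs of arterial, capillary and venous zones). Of 23 such differences tested, 3 had an unadjusted p under 0.05, and DESeq2 was not run on them. The background was 0.59% of genes for the arterial against the capillary zone, 0.279% for arterial against venous and 0.211% for capillary against venous. The smallest adjusted p was for Sparc, with a difference of 0.13 on the log2 scale between the arterial and the capillary zone (adjusted p = 0.273, edgeR).

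In pericyte-like cells none of the 6 members tested was called by edgeR, 0 had an unadjusted p under 0.05 and DESeq2 called 0. The background there was 0.234%, 14 of 5976 genes, from 157 to 180 cells a library. Sparc was at 1395 and 1372 CPM in the WT and at 1282 and 1291 CPM in the KO, with a log2 value of -0.04 (adjusted p = 0.919, edgeR). Col4a1 was at 923 and 929 CPM in the WT and at 905 and 885 CPM in the KO, with a log2 value of 0.01 (adjusted p = 0.983, edgeR). The difference from the endothelial-like change was -0.35 for Sparc (adjusted p = 0.272, edgeR) and -0.24 for Col4a1 (adjusted p = 0.93, edgeR), with 0.184% of genes called for a difference.

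In smooth muscle-like cells Sparc was the only member of 7 tested that was called, against a background of 5.64%. It was at 1002 and 959 CPM in the WT and at 747.5 and 775 CPM in the KO, a log2 change of -0.27 (adjusted p = 0.000306, edgeR), with no overlap. The endothelial gauge genes stood at 0.523% to 1.89% of their endothelial-like level in this class and Sparc at 50.4% to 79.8%. Col4a2, in contrast, was at 311 and 348 CPM in the WT and at 319 and 325 CPM in the KO, with a log2 value of 0.06 (adjusted p = 0.71, edgeR). Its change in endothelial-like cells was lower by 0.29 on the log2 scale (adjusted p = 0.0128, edgeR), a difference called for 0.903% of genes. For Col4a1 that difference was -0.22 and did not pass (adjusted p = 0.156, edgeR).

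Microglia-like cells, tested because Sparc was highest there, had Sparc at 2265 and 2112 CPM in the WT and at 1826 and 1776 CPM in the KO. This was a log2 change of -0.20 (adjusted p = 0.000213, edgeR), the only call among 5 members tested, with a background of 12.8%. The change in endothelial-like cells was larger by 0.18 on the log2 scale (difference -0.18, adjusted p = 0.000483, edgeR), which was called for 5.39% of genes. The WT libraries held 500 and 455 microglia-like cells and the KO libraries 890 and 836, and its part in the change was not tested. In astrocyte-like cells none of the 4 members tested was called by edgeR, 0 had an unadjusted p under 0.05 and DESeq2 called 0, with a background of 13.9%. Col4a2 had the largest value there, a log2 value of 0.95 (adjusted p = 0.183, edgeR), from levels of 9.14 to 29.5 CPM. Both KO libraries lay above both WT libraries, and DESeq2 gave Col4a2 no adjusted p in this class. Agrn there was at 85.2 and 72.2 CPM in the WT and at 98.1 and 79.4 CPM in the KO, and the groups overlapped. Fibroblast-like cells were too few to test.

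**Figure D3:**
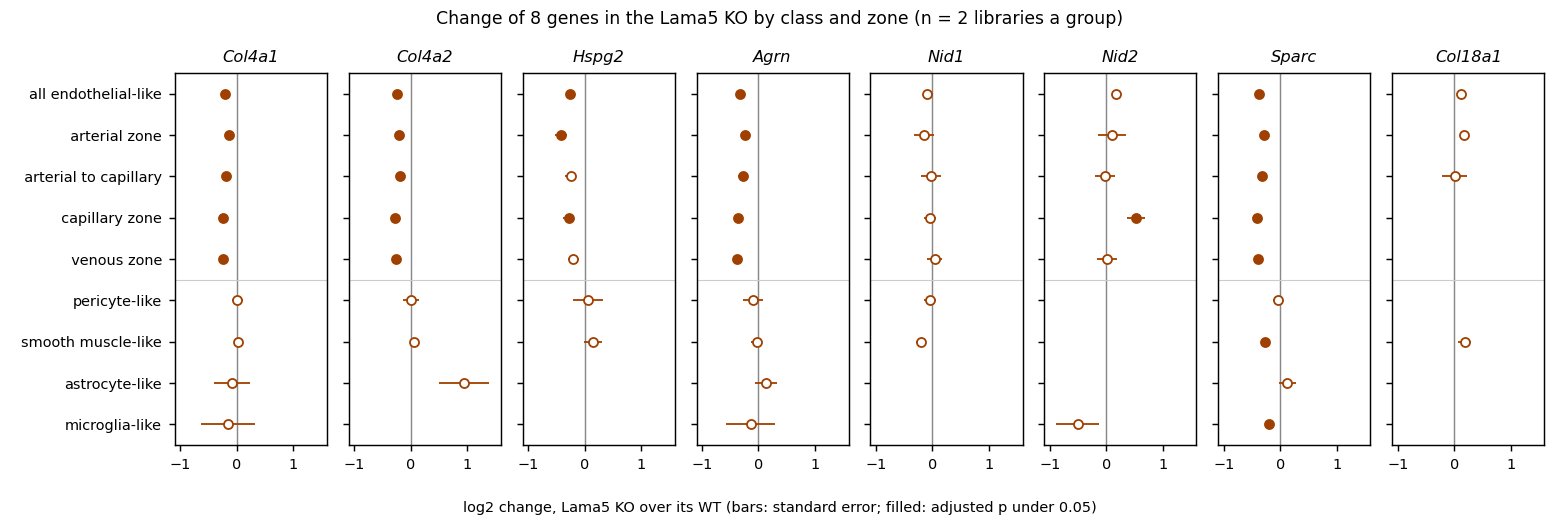
Log2 change of 8 of the genes in the Lama5 KO against its WT, by cell class and vessel zone, with standard errors; filled points have an adjusted p under 0.05 and a missing point was not tested. Sparc, Agrn, Col4a1 and Col4a2 are lower in all 4 zones, and outside the endothelium Sparc alone is called, in smooth muscle-like and microglia-like cells.

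Other genes of the basement membrane moved in both directions in the endothelial-like class of the Lama5 KO. The shares called in these lists are read beside the 19.1% of all genes called in this class. Of 11 laminin chains, 9 were tested; besides the targeted Lama5 and the rise of Lama4, Lamb2 fell (log2 change -0.21). Of 24 genes that fold, modify or crosslink collagen IV, 21 were tested, 3 rose and 1 fell. This was 19.0% of those tested, a share at the background. Those that rose were Lox, a crosslinking oxidase (1.15), P3h3, a prolyl hydroxylase (1.05), and P4hb, a subunit of prolyl hydroxylase (0.11), and Crtap fell (-0.17). The list median was 0.00.

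Of 20 genes of heparan sulfate assembly, 16 were tested, 1 rose and 2 fell, which was 18.8% and again at the background. The chain-building genes Extl3 (-0.25) and Ext2 (-0.15) fell, and the sulfotransferase gene Hs6st1 rose (0.28), with a list median of -0.05. Of 28 other basement membrane matrix genes, 19 were tested, 3 rose and 2 fell (26.3%), with a list median of 0.01. Egfl7 (0.13), Vwa1 (0.12) and Mmrn2 (0.15) rose, and Tinagl1 fell (-0.14).

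Of 19 receptor genes, 16 were tested, 2 rose and 2 fell (25%, near the background), with a list median of 0.02. Itga1, an integrin subunit for collagens and laminins, fell (-0.25), as did the proteoglycan gene Sdc3 (-0.37), while Sdc4 (0.45) and the VEGF receptor gene Kdr (0.08) rose. The endothelial gauge genes themselves moved: of 6, 2 rose and 3 fell (83.3%). Among them were Cldn5 (0.10), Ly6c1 (-0.17), Itm2a (-0.16) and Pltp (-0.14). In pericyte-like cells 0 of the 56 genes of these lists that were tested were called by edgeR, 8 had an unadjusted p under 0.05 and DESeq2 called 0.

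The 2 WT pools, 1 from each experiment, were compared to show how far the genes move without a knockout. In endothelial-like cells 7 of 9 members differed, with 55.5% of all genes called, and age and genotype label were the same. Depth was not: the median endothelial-like cell had 5918 and 5705 UMIs in the Lama4 WT libraries and 3299.5 and 3158 in the Lama5 WT libraries. The steps below thus hold differences between experiments as well as between mice, and the part of each was not tested. Hspg2 was at 97.3 and 98.3 CPM in the WT of the Lama4 experiment and at 66.1 and 68.2 CPM in that of the Lama5 experiment, a log2 difference of -0.43 (adjusted p = 2.86e-07, edgeR). Nid2 was lower by 0.58 (log2 difference -0.58), Agrn had -0.20 and Sparc -0.19, while Col4a1 (0.21) and Col4a2 (0.12) were higher in the Lama5 experiment. Col15a1 differed too (-2.28, from few UMIs), with -3.22 without the first WT library of the Lama5 experiment and -1.73 without the second. The libraries overlapped for Col4a2, whose call was lost with DESeq2 (adjusted p = 0.0569). How far WT pools of the same experiment would differ was not tested. The steps between the WT pools are listed beside the changes in the Lama5 KO, which were measured within 1 experiment. There Hspg2, Agrn, Sparc, Col4a1 and Col4a2 had log2 changes of -0.26, -0.33, -0.37, -0.21 and -0.24. The step between pools was larger for Hspg2, similar in size for Col4a1 and smaller for Agrn, Sparc and Col4a2. For Col4a1 and Col4a2 it had the opposite sign. With 1 pool of mice per group, the spread between mice is not in the tests, which measure only the spread between 2 samples of a pool, and pool and genotype cannot be told apart.

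The Lama4 KO had 1 distinct library, so its values are given without a test, and the exact 95% intervals cover counting error only. A gene was called outside when it lay beyond both WT libraries and differed from their mean by a ratio of at least 5 to 4 in either direction. In endothelial-like cells 8 of the 9 members were not outside by this rule, and 3.94% of the 6401 genes of at least 20 CPM were outside. Of those 8, only Nid1 lay between its WT libraries, and the others lay beyond both by less than that ratio. Sparc was at 1676 and 1702 CPM in the WT and at 1593 CPM in the KO, a ratio of 0.943 (0.930 to 0.957). Col4a1 was at 566 and 570.5 CPM in the WT and at 582 CPM in the KO, a ratio of 1.02 (1.00 to 1.05). The collagen IV and Sparc levels thus stayed inside that ratio.

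Agrn was at 182 and 180 CPM in the WT and at 184 CPM in the KO, a ratio of 1.02 (0.975 to 1.06). Hspg2 had a ratio of 1.03 (0.970 to 1.09), Col4a2 of 0.956 (0.926 to 0.988), Nid1 of 1.04 (0.936 to 1.15) and Nid2 of 0.934 (0.828 to 1.05). Col18a1 was the furthest of these from 1, at 34.6 and 39.3 CPM in the WT and 45.4 CPM in the KO, a ratio of 1.23 (1.13 to 1.35). The KO library lay above both WT libraries.

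Col18a1 stood at a similar ratio in the classes that hold most of it. In the arterial zone it was at 149 and 151 CPM in the WT and at 186 CPM in the KO, a ratio of 1.24 (1.13 to 1.36). The smooth muscle-like class had it at 122 and 114 CPM in the WT and at 146 CPM in the KO, a ratio of 1.24 (1.08 to 1.43). Both values were just inside the ratio of 5 to 4. Nid1 in the arterial zone was outside it, at 17.0 and 18.1 CPM in the WT and 24.4 CPM in the KO, a ratio of 1.39 (1.06 to 1.81) from 92 UMIs in the KO. In that zone 7.83% of the 6402 genes of at least 20 CPM were outside, and Nid1 lay below that level in both WT libraries.

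Col15a1 was the 1 member outside by that rule in endothelial-like cells, though below the 20 CPM of the background count. It had 21 and 18 UMIs in the WT libraries and 39 in the KO, a ratio of 2.34 (1.46 to 3.75). Of the 39 UMIs, 32 lay in 14 cells of a sub-cluster led by Plvap and Esm1, which was in no vessel zone, and without that sub-cluster the ratio was 0.728.

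In pericyte-like cells, Col4a1 was at 1014 and 940 CPM in the WT and at 832 CPM in the Lama4 KO, a ratio of 0.851 (0.765 to 0.945). The KO library was below both WT libraries and inside the ratio of 5 to 4. Nid1 had a ratio of 0.889 (0.768 to 1.03), Agrn of 0.812 (0.640 to 1.02) and Sparc of 0.957 (0.881 to 1.04) in that class. In microglia-like cells Sparc was at 3408 and 3474 CPM in the WT and at 3704 CPM in the KO, a ratio of 1.08 (1.06 to 1.09).

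**Figure D4:**
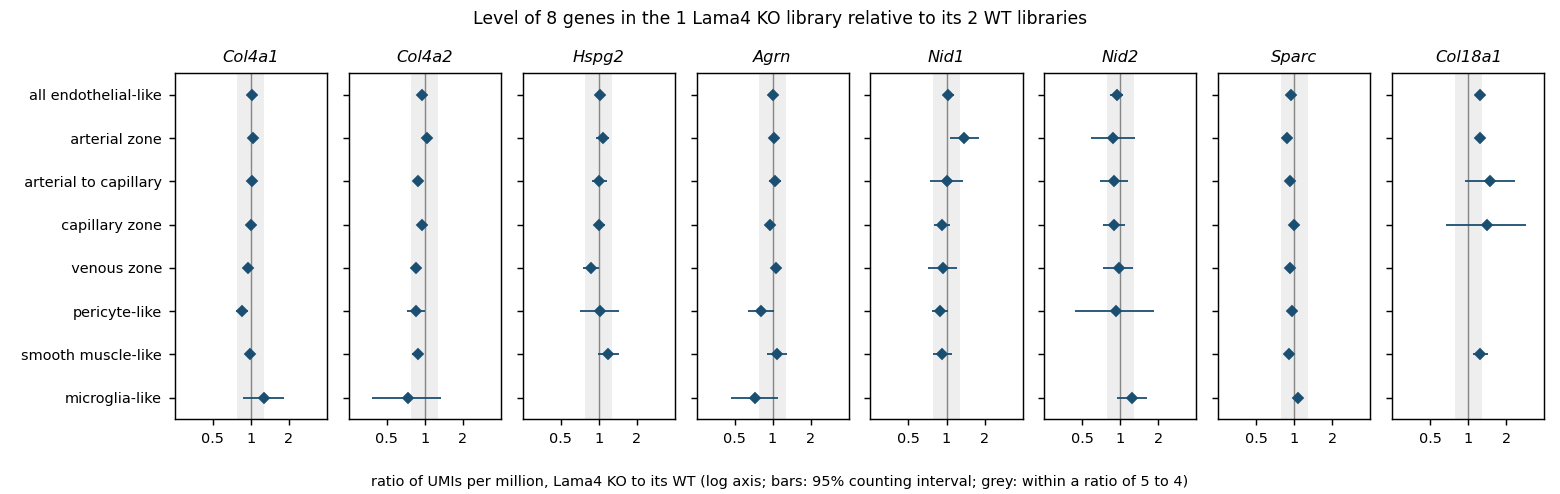
Ratio of the Lama4 KO library to its 2 WT libraries for 8 of the genes, by class and zone, on a log axis with 95% counting intervals; ratios from under 30 UMIs in all 3 libraries together are left out and grey marks a ratio within 5 to 4. Most points lie in the grey band. Those outside it include Nid1 in the arterial zone (1.39) and Col18a1 in the arterial-to-capillary and capillary zones. Col18a1 in the arterial zone and in smooth muscle-like cells lies near the upper edge of the band.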

How the data were processed

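The values are UMI counts, which the authors deposited without scaling. Per the file headers the software version was 3.1.0, and the submitters' processing notes name Cell Ranger, Seurat 3.1 and mm10; the annotation and the settings of cell calling are not given in the sources used here. Cells with at least 500 genes and under 15% mitochondrial UMIs were kept after removal of scored doublets (0.8% per 1000 cells). They were clustered on 2000 variable genes, 30 principal components and 15 neighbours with the Leiden method (resolution 1; leidenalg 0.10.2, igraph 0.11.9). Clusters were named from marker lists with at least 3 markers, and zones by sub-clustering endothelial-like cells (resolution 0.5). Counts were summed per library and class and tested with edgeR 4.0.16 (R 4.3.3; filterByExpr, TMM, quasi-likelihood F test, Benjamini-Hochberg over all genes) where each library had at least 50 cells. The scripts were tested on simulated counts. Alternatives were another scaling, DESeq2 1.42.0, no low-count filter, other cell filters and clusterings, a replicate block and leaving out each library. The members were named in every comparison, and genes of the lists when called in endothelial-like cells, at most 4 a list. The members and lists were chosen with earlier results of these data known. Microglia-like cells, the arterial-to-capillary zone, the tests of differences and the removal of the Plvap-led sub-cluster were chosen after seeing the data. Sequences are from RefSeq and GRCm38, coordinates 1-based from GENCODE M21.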

Additional observations from a re-analysis of the deposited data

Results flagged for a closer look

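The Lama5 KO change of Col4a2 was lower in endothelial-like than in smooth muscle-like cells by 0.29 on the log2 scale (difference -0.29), by a test of the difference itself in the same libraries. The change of Sparc was likewise lower in endothelial-like than in microglia-like cells (difference -0.183).

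Signal of the members also lay in cells outside the named classes or the vessel zones. An unnamed cluster of 145 cells led by Col3a1, Cxcl1 and Steap4, which met markers of pericytes, smooth muscle and fibroblasts together, had Col4a1 up to 2106 CPM, Sparc up to 6318 CPM and Nid1 up to 654.4 CPM in its highest library. Over the 4 libraries with at least 10 such cells, Col4a1 was at 1179 to 2106 CPM, above the 832 to 1014 CPM of pericyte-like cells. Sparc was at 4655 to 6318 CPM there, above the 1776 to 3704 CPM of microglia-like cells. The 25 cells of the Plvap-led sub-cluster, which are part of the endothelial-like class but of no zone, held 52 Col15a1 UMIs, which was 55.3% of the 94 in all endothelial-like cells, at 222.5 CPM. Neither group of cells was compared between genotypes on its own, and the Lama4 KO ratio of Col15a1 in endothelial-like cells was 2.34 with the Plvap-led cells and 0.728 without them.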

How the results depend on the processing

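For the Lama5 KO in endothelial-like cells, the count of 5 members lower was 5 under every alternative that keeps all libraries, and 5 to 6 when 1 library was left out. In arterial cells the count of 5 was 2 with DESeq2, which gave no adjusted p for Hspg2 and Agrn, and 1 to 6 with 1 library left out (1 without the second KO library, 2 without the first WT library). In the arterial-to-capillary zone the count of 4 was 2 with DESeq2, which gave none for Agrn, 1 with no filter on low counts, 1 at the finer sub-clustering and 0 to 3 with 1 library left out (0 without either KO library). The counts of 6 in the capillary zone and 4 in the venous zone were 4 to 6 and 4 over all alternatives. The replicate numbers did not pair the samples (correlation of deviations -0.0264 in endothelial-like cells), and with a replicate block the counts were 5 in endothelial-like, 0 in pericyte-like and 1 in smooth muscle-like cells, the same as without it. For the Lama4 KO in endothelial-like cells, 1 member was outside by the rule of 5 to 4. This count became 0 when doublets were kept, 0 under the stricter cell filter and 0 without the Plvap-led sub-cluster. Against 1 WT library alone it was 1 to 2, with Col18a1 the second. Col15a1 reversed, with ratios of 0.721 when doublets were kept, 0.726 under the stricter filter and 0.728 without that sub-cluster. For the first and second of these the cause was not tested. The class with the highest mean stayed the same for 7 or more of 9 members under every alternative of cells or averaging, with Hspg2 and Nid2 the ones that moved. Both were highest in fibroblast-like cells by the mean over cells and in B-like cells under the stricter filter. With doublets kept, Hspg2 was highest in fibroblast-like cells. Of 945 alternative values for single members, 891 kept their side of the threshold. Precision was lowest where UMIs were few, as for Col15a1, and whether depth limited other calls was not tested.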
